A study of Mus musculus with 6 samples.

Results

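The genes described here encode the chaperonins of mouse HL-1 cells. They are the 8 subunits of the cytosolic chaperonin TRiC (Tcp1, Cct2, Cct3, Cct4, Cct5, Cct6a, Cct7 and Cct8) and the mitochondrial pair Hspd1 (HSP60) and Hspe1 (HSP10). The 10 genes were picked by symbol from a table of 22913 genes, and all 10 were among the 12827 genes with enough reads to be tested. HL-1 is a line derived from mouse atrial heart muscle cells. The libraries of polyadenylated RNA fell into 2 groups of 3. In the first group, cells had been transfected with a plasmid that overexpresses HSPA1A, the stress-inducible HSP70 chaperone, and in the second with a control plasmid. The treatment note in the labels, worded the same for both groups, calls the HSPA1A human. Both groups were transfected with Lipofectamine 2000 and harvested after 48 h. No source used here gives the promoter of the plasmid or the share of cells that took it up.

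Chaperonins are double rings that close around an unfolded protein and release it after hydrolysing ATP. TRiC builds each ring from 8 different but related subunits, and it folds actins, tubulins and many proteins with WD repeats. It receives part of its clients from HSP70, which is the protein overexpressed here, and part from prefoldin. In the mitochondrial matrix, HSP60 forms the barrel and HSP10 the lid, and they work downstream of the mitochondrial HSP70, Hspa9. Hspd1 and Hspe1 are classical targets of the heat shock factor HSF1 and are widely used as readouts of the mitochondrial unfolded protein response.

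The promoters are shown first because the HSP60 and HSP10 genes share one stretch of DNA that carries the binding letters of heat shock factors. Hspd1 (ENSMUSG00000025980.12) lies on chromosome 1 from 55077835 to 55088243 on the minus strand of GRCm38. Hspe1 (ENSMUSG00000073676.4) lies from 55088132 to 55091307 on the plus strand, so that the 5′ ends of both genes overlap. RefSeq promoter windows of GRCm38.p6, running from 250 bases before to 50 bases after a start, were matched by symbol for 9 of the 10 genes, that is, for all except Cct4. The windows of Hspe1 (chr1:55087898-55088197, plus strand), Cct6a (chr5:129787106-129787405, plus strand) and Cct5 (chr15:31601797-31602096, minus strand) are printed below, with the letters of heat shock elements in capitals. Hspe1 is shown for its long element. Cct6a and Cct5 are shown as the TRiC genes whose window held the shorter form TTCNNGAA.
Hspe1: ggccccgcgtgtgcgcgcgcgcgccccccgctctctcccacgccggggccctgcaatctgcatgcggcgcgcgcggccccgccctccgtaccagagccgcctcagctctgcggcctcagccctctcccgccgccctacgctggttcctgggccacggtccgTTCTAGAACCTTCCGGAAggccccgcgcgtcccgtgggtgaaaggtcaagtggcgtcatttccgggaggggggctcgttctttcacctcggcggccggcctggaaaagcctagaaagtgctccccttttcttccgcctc
Cct6a: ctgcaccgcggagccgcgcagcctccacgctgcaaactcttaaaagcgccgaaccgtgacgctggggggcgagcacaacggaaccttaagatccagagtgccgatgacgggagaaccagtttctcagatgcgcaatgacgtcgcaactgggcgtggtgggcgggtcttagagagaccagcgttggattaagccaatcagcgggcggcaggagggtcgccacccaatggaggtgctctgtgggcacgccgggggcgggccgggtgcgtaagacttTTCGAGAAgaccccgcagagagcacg
Cct5: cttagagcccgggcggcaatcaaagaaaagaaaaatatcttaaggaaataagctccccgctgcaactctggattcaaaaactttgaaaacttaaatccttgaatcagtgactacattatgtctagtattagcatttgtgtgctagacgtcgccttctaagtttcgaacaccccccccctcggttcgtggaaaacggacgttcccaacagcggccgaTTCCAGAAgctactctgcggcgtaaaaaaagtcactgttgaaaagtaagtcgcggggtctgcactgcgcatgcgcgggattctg

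In the Hspe1 window the capitals form an unbroken run of alternating GAA and TTC units from 89 to 72 bases before the start. A heat shock element of 3 units (TTCNNGAANNTTC or GAANNTTCNNGAA, both strands) occurred in a window each of Hspe1 and Hspd1 and of no other chaperonin gene. That is 2 of 9 genes and 2 of their 12 windows. The Hspd1 window that holds this element (chr1:55087883-55088182, minus strand) covers the same DNA, so this is 1 element read from both sides and not 2 independent ones. The other Hspd1 window (chr1:55088194-55088493, minus strand), around the 5′ end at 55088243, held no heat shock element of any form. Among 32851 RefSeq windows of the same length, 0.603% held a 3-unit element. The 2-unit form TTCNNGAA was found in 4 of 9 genes (Hspd1, Hspe1, Cct6a and Cct5) and 4 of the 12 windows, against 8.52% of all windows. Its reverse arrangement GAANNTTC was found in 3 genes (Hspd1, Hspe1 and Cct2) and 3 of the 12 windows, against 7.86%. In Hspd1 and Hspe1 both 2-unit forms overlap the 3-unit element.

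The GC box GGGCGG was present in 9 of 9 genes and 11 of their 12 windows, against 35.7% of all windows. The CCAAT box (CCAAT) was present in 5 of 9 genes and 5 of the 12 windows, against 37.4% of all windows. The ETS letters CCGGAAG were present in 5 of 9 genes and 5 of the 12 windows, against 8.86%. In Hspd1 and Hspe1 they overlap the heat shock element. Some genes have several windows, each was searched on both strands, and a match describes the letters only.

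Sequencing depth was similar in both groups, at 23849656 to 26897086 counts in HSPA1A libraries and 24540652 to 26445340 counts in control libraries. The libraries of the HSPA1A group were unlike each other. The scores along principal component 1 (34.3% of the variance) were -15.9, 15.1 and -18.3 in HSPA1A replicates 1, 2 and 3, against 8.27, 6.58 and 4.33 in control replicates 1, 2 and 3. HSPA1A replicate 2 therefore lay on the side of the control libraries. Its group rests on its label alone: no value in these files measures uptake of the plasmid, so neither the label nor the transfection of any single library could be checked, and values are given with and without this library where it matters. The noncoding RNA Yam1 took 2.70%, 1.58% and 2.53% of the counts in HSPA1A replicates 1, 2 and 3, against 1.86%, 1.18% and 1.23% in control replicates 1, 2 and 3. Nothing in the labels says that replicates came from separate cultures, and the p-values then reflect only how far these libraries spread, possibly for technical reasons. Of 17 cardiomyocyte markers 13 were listed. Among them 5 averaged at least 1 FPKM (Gata4, Tnnt2, Tnnc1, Nkx2-5 and Des), while 6, including Actc1, Tnni3, Ryr2 and Myl2, averaged below 0.1. The summed cardiomyocyte marker level was 207 to 239.6 FPKM in HSPA1A libraries and 242 to 250.4 FPKM in control libraries. Des made up most of this sum, with 179, 179.5 and 167 FPKM in HSPA1A libraries and 193, 206 and 205 FPKM in control libraries. The values of Gata4, Tnnt2, Tnnc1 and Nkx2-5 overlapped between the groups. Of 7 listed fibroblast markers, Dcn, Col1a1, Col3a1 and Col1a2 averaged at least 1 FPKM and Lum averaged below 0.1. The sum of the 7 was 132 to 162 FPKM in HSPA1A libraries and 152 to 155 FPKM in control libraries. All 4 listed endothelial markers averaged below 0.1 FPKM over the 6 libraries. The part of these differences in the results below was not tested.

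The overexpressed gene itself could be followed only through its mouse counterparts. Mouse Hspa1a had 17, 20 and 11 reads in HSPA1A replicates 1, 2 and 3, against 10, 17 and 11 in control replicates 1, 2 and 3. Its log2 fold change of 0.39 had a 95% interval of -0.38 to 1.16, and the p adjusted over all tested genes (edgeR's quasi-likelihood test, Benjamini-Hochberg) was 0.795. Hspa1b, its near-identical neighbour, had 56, 94 and 74 reads in HSPA1A libraries and 75, 76 and 66 in control libraries. If the plasmid carries the human gene, its reads are counted only where they align to the mouse genome, so these values give no direct measure of the plasmid's RNA.

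At 48 h, no chaperonin gene was called higher or lower in HSPA1A cells. Of the 10 genes, 0 passed the threshold of 0.05 on the adjusted p in edgeR's quasi-likelihood test, where 0.179% of all tested genes did. DESeq2 likewise called 0 of 10, against 0.499% of all tested genes. An unadjusted p under 0.05 in the edgeR fit was reached by 0 of 10 chaperonin genes, against 8.59% of all tested genes. The 3 HSPA1A values lay entirely above or below the 3 control values for 0 of 10, against 14.5% of all tested genes. Adjusted p-values of the 10 genes ran from 0.653 to 0.973 in the edgeR fit. In bulk RNA, a lower number of cells carrying a transcript and less of it per cell cannot be told apart.

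The limits on TRiC were narrow. Across the 8 subunits the 95% intervals of the log2 fold change spanned -0.12 to 0.25, which corresponds to 0.919-fold to 1.19-fold. The fitted log2 fold changes were positive for 8 of 8 subunits under TMM scaling, with a median of 0.042, but for only 4 of 8 when libraries were scaled by their totals and 2 of 8 on the deposited FPKM. The median over all tested genes was 0.0029 under TMM, -0.033 on totals and -0.041 on FPKM. Of the 12827 tested genes, 6544 were positive under TMM, 4964 on library totals and 3986 on FPKM. The common sign of TRiC under TMM was not kept on the other scales. The TRiC median was 0.0041 on totals and -0.019 on FPKM, above the median of all tested genes on each scale. That difference was not tested.

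Of the subunits that in yeast carry most of the ATP hydrolysis (Tcp1, Cct2, Cct4 and Cct5), Tcp1 was the steadiest. Tcp1, the subunit alpha after which the family is named (ENSMUSG00000068039.10, chromosome 17, 12915701 to 12925067, plus strand), had 445, 448 and 454 CPM in HSPA1A replicates 1, 2 and 3, against 449, 449 and 442 CPM in control replicates 1, 2 and 3. The 6 libraries differed little and the groups overlapped. The HSPA1A mean was 449 ± 4.55 CPM and the control mean 447 ± 4.07 CPM (SD, n = 3 each), with a log2 fold change of 0.0076 (95% interval -0.10 to 0.11, adjusted p 0.973 by edgeR's quasi-likelihood test).

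Cct2, subunit beta (ENSMUSG00000034024.7, chromosome 10, 117051001 to 117063814, minus strand), had 709, 679 and 716 CPM in HSPA1A libraries and 673, 709 and 693 CPM in control libraries. The ranges overlapped almost fully, and the log2 fold change was 0.020 ± 0.051 (SE). Cct4, subunit delta (ENSMUSG00000007739.8, chromosome 11, 22990519 to 23003780, plus strand), had 569, 518 and 582 CPM in HSPA1A libraries, against 519, 541 and 538 CPM in control libraries. HSPA1A replicates 1 and 3 lay above every control library and HSPA1A replicate 2 below every one. Its log2 fold change was 0.063, with an interval from -0.065 to 0.19.

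Cct5, subunit epsilon, in which inherited mutations cause a sensory neuropathy in humans (ENSMUSG00000022234.12, chromosome 15, 31590800 to 31601804, minus strand), showed the same split more widely. It had 968, 828 and 981 CPM in HSPA1A replicates 1, 2 and 3, against 879, 923 and 908 CPM in control replicates 1, 2 and 3. HSPA1A replicate 2 differed from the control mean by -8.37%, while replicates 1 and 3 together averaged 1.08 times that mean. The HSPA1A mean was 926 ± 85.1 CPM and the control mean 904 ± 22.6 CPM, and the interval of the log2 fold change ran from -0.12 to 0.19.

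Among the other 4 subunits, Cct6a had the largest difference. Cct6a, subunit zeta (ENSMUSG00000029447.9, chromosome 5, 129786998 to 129846371, plus strand), had 473, 415 and 476 CPM in HSPA1A libraries and 405, 427 and 430.5 CPM in control libraries. HSPA1A replicates 1 and 3 were the highest of the 6 libraries, and HSPA1A replicate 2 fell among the control libraries. The HSPA1A mean was 455 ± 34.3 CPM and the control mean 421 ± 13.9 CPM (SD, n = 3 each). The log2 fold change was 0.11 ± 0.063 (SE). Its interval was -0.028 to 0.25 (adjusted p 0.653, edgeR's quasi-likelihood test). The file lists Cct6a as a processed transcript, and Psph lies on the other strand within its extent, with 6436 to 6879 reads in a library.

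Cct3, subunit gamma (ENSMUSG00000001416.11, chromosome 3, 88297116 to 88321767, plus strand), varied most among controls. It had 428, 355 and 402 CPM in HSPA1A libraries and 352, 402 and 392 CPM in control libraries. The lowest library of the 6 was control replicate 1, and the log2 fold change was 0.048 ± 0.076 (SE). Cct7, subunit eta (ENSMUSG00000030007.6, chromosome 6, 85451514 to 85468475, plus strand), had 495, 446 and 469.6 CPM in HSPA1A libraries and 442, 485 and 458 CPM in control libraries. The groups overlapped, with a log2 fold change of 0.026 ± 0.059 (SE). Cct8, subunit theta (ENSMUSG00000025613.11, chromosome 16, 87483326 to 87495873, minus strand), had 507, 466 and 525 CPM in HSPA1A libraries and 471, 492 and 482 CPM in control libraries. It split as Cct4 did, with HSPA1A replicates 1 and 3 highest and HSPA1A replicate 2 lowest, and its log2 fold change was 0.052 ± 0.057 (SE).

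The mitochondrial pair diverged in the size of its spread. Hspd1, the HSP60 barrel, had 701, 604 and 692 CPM in HSPA1A replicates 1, 2 and 3, against 660.5, 683 and 679.9 CPM in control replicates 1, 2 and 3. HSPA1A replicate 2 was the lowest of the 6 libraries, at -10.5% from the control mean, and the other HSPA1A libraries were the highest. The HSPA1A mean was 666 ± 53.8 CPM and the control mean 675 ± 12.3 CPM (SD, n = 3 each). The log2 fold change was -0.019 (interval -0.16 to 0.12, adjusted p 0.947 by edgeR's quasi-likelihood test).

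Hspe1, the HSP10 lid, was the most variable chaperonin gene. It had 378, 263 and 375 CPM in HSPA1A replicates 1, 2 and 3, against 284, 305 and 314 CPM in control replicates 1, 2 and 3. HSPA1A replicates 1 and 3 stood above every control library, and HSPA1A replicate 2 stood below every one, at -12.6% from the control mean. The HSPA1A mean was 339 ± 65.4 CPM and the control mean 301 ± 15.4 CPM (SD, n = 3 each), and the log2 fold change was 0.17 ± 0.12 (SE). Its interval, -0.090 to 0.43, was the widest of the 10 and allowed up to 1.35-fold (adjusted p 0.730 by edgeR's quasi-likelihood test). With no filter on low counts the interval was 0.040 to 0.28 (unadjusted p 0.00900, adjusted p 0.317 by edgeR's quasi-likelihood test).

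**Figure D1:**
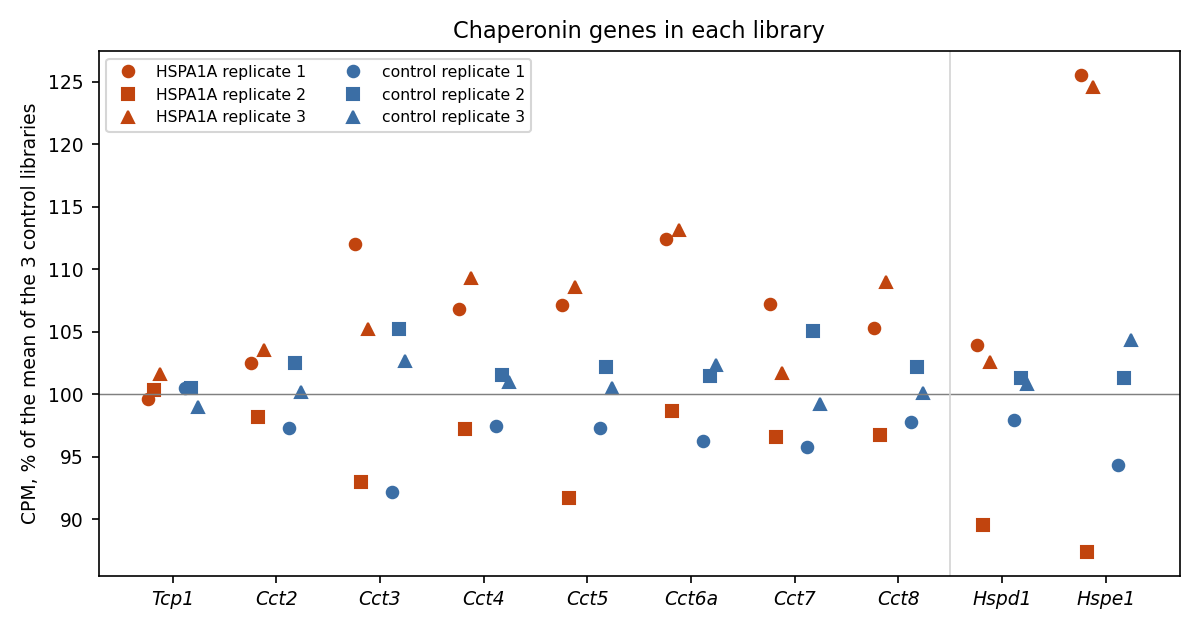
CPM of each chaperonin gene in each of the 6 libraries, as a percentage of the mean of the 3 control libraries (vertical axis, not starting at 0; HSPA1A points left of control points). HSPA1A replicates 1 and 3 lie above all control libraries for 7 of the 10 genes (Cct3 by a margin too small to see) and HSPA1A replicate 2 below all of them for 5, with the widest gap at Hspe1. Among 858 tested genes of at least 200 CPM, 42.3% show the first arrangement and 38.7% the second. On the deposited FPKM only Cct6a and Hspe1 of the 10 chaperonin genes show the first.

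On TMM-scaled CPM, HSPA1A replicates 1 and 3 were both above every control library for 7 of the 10 genes, against 21.0% of all tested genes and 42.3% of the 858 that averaged at least 200 CPM, as all 10 do. They were Hspd1, Hspe1 and 5 TRiC subunits (Cct4, Cct5, Cct6a, Cct8 and Cct3). For Cct3 the margin vanishes, at 401.90 against 401.90 CPM. On the deposited FPKM only Cct6a and Hspe1 among them kept this arrangement. Hspd1, for instance, had 259 and 255 FPKM in HSPA1A replicates 1 and 3, against up to 269 FPKM in control libraries. On TMM-scaled CPM, HSPA1A replicate 2 was below every control library for 5 of the 10, against 30.2% of all tested genes and 38.7% of those 858. The arrangement is thus common among genes of this level, and nothing particular to the chaperonins is read from it. The median TRiC subunit, on a log2 scale relative to the control mean, stood at 0.10, -0.044 and 0.10 in HSPA1A replicates 1, 2 and 3, against -0.039, 0.031 and 0.0056 in control replicates 1, 2 and 3. On that scale Hspe1 stood at 0.33, -0.19 and 0.32 in HSPA1A libraries and at -0.082, 0.019 and 0.063 in control libraries. HSPA1A replicates 1 and 3, where the median TRiC subunit and Hspe1 were highest on this scale, also had the largest Yam1 share and the lowest values on the first principal component. The part of these in the result was not tested. The order does not hold for every measure, since Tcp1 was not highest in HSPA1A replicate 1 and the summed TRiC FPKM, given below, was highest in control replicate 2.

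The coefficient of variation was larger in HSPA1A than in control libraries for 10 of the 10 genes, with a median of 6.84% in HSPA1A and 2.55% in control libraries. This was shared with other genes of high level. Of 858 genes that averaged at least 200 CPM, 717 also varied more among HSPA1A libraries, with medians of 5.83% in HSPA1A and 2.60% in control libraries. Hspe1 reached 19.3% in HSPA1A libraries, against 5.11% in control libraries. Tcp1, at the other end, had 1.01% in HSPA1A and 0.912% in control libraries.

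Because 1 library set most of this spread, the fit was repeated without HSPA1A replicate 2. This leaves 2 HSPA1A libraries, the library was singled out for its values, and many other genes were then called as well. Then 2 of the 10 chaperonin genes were called higher, where 5.27% of 12955 tested genes were called higher and 4.94% lower. Hspe1 was higher (log2 fold change 0.32, interval 0.22 to 0.43, adjusted p 0.000906), and Cct6a was higher (log2 fold change 0.18, interval 0.081 to 0.27, adjusted p 0.0221), both by edgeR's quasi-likelihood test. No other chaperonin gene passed the threshold. Their log2 fold changes ran from 0.012 for Tcp1 to 0.12 for Cct3, and Hspd1 had 0.049 with an interval from -0.044 to 0.14. With library totals in place of TMM and the same library left out, Hspe1 alone was called (log2 fold change 0.27, adjusted p 0.00317 by edgeR), where 2.41% of all tested genes were called higher. On FPKM without that library 0 of 10 were called by limma, where 0.381% of all genes were, and Hspe1 had a log2 fold change of 0.24 with an adjusted p of 0.167.

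**Figure D2:**
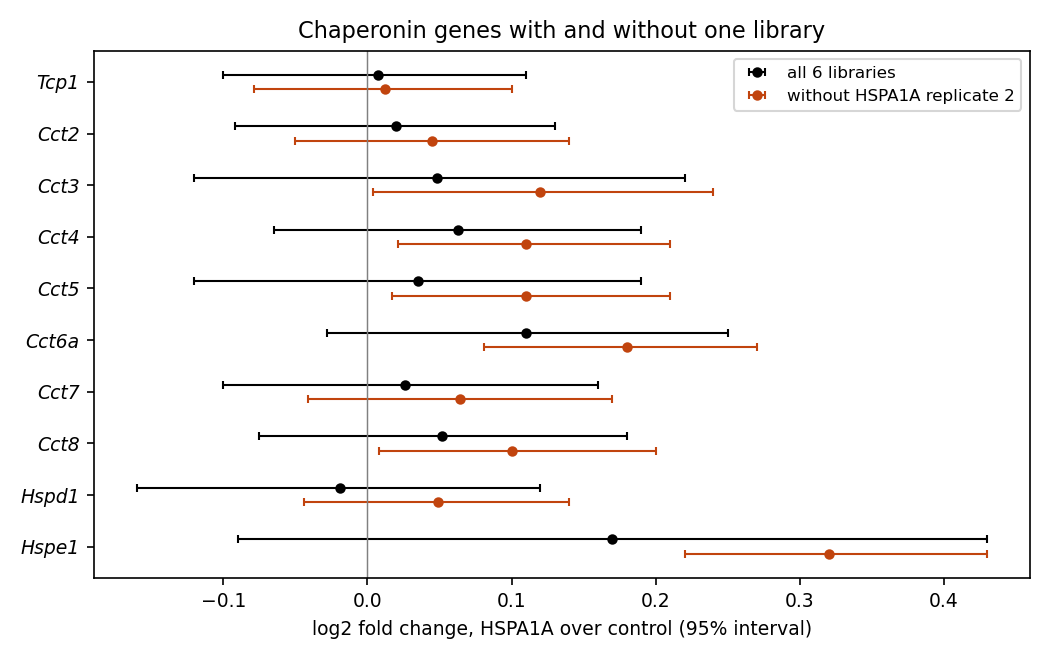
Log2 fold change of HSPA1A over control for each chaperonin gene with its 95% interval (edgeR, TMM scaling), from all 6 libraries and without HSPA1A replicate 2. With all libraries each interval includes 0. Without HSPA1A replicate 2, Hspe1 (0.32) and Cct6a (0.18) have an adjusted p under 0.05, while the signs of several other genes depend on the scaling.

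Per gene length, the TRiC transcripts were not equal. Deposited FPKM, which divide by length and library size, placed Cct5 highest at 457, 409.6 and 462 FPKM in HSPA1A replicates 1, 2 and 3, against 433, 465 and 454 FPKM in control replicates 1, 2 and 3. Cct2 followed with 324, 325 and 326 FPKM in HSPA1A libraries and 321, 345 and 335 FPKM in control libraries. Both ranges were separate from those of the next gene. The other 6 subunits lay close together. Over all 6 libraries Cct4 ranged from 195 to 209 FPKM, Cct8 from 182 to 196, Cct7 from 169 to 189, Cct6a from 154 to 173, Cct3 from 145 to 169 and Tcp1 from 147 to 158.

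Each of these 6 ranges overlapped its neighbour's, although within single libraries Cct4 exceeded Cct8, and Cct8 exceeded Cct7, in 6 of 6. Cct7 exceeded Cct6a, and Cct6a exceeded Cct3, in 5 of 6 libraries, and Cct3 exceeded Tcp1 in 4 of 6. The order depends on the gene lengths that the authors used. The highest subunit was 3.10, 2.80 and 3.09 times the lowest in HSPA1A replicates 1, 2 and 3, against 2.99, 2.94 and 2.93 times in control replicates 1, 2 and 3, for a complex that holds its subunits in equal number.

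Expressed as a share of the summed TRiC FPKM, Cct5 made up 24.4 ± 0.83% in HSPA1A and 24.6 ± 0.078% in control libraries, and Cct2 17.9 ± 0.60% in HSPA1A and 18.2 ± 0.061% in control libraries (SD, n = 3 each). Cct6a made up 9.29 ± 0.16% in HSPA1A and 8.85 ± 0.14% in control libraries. Tcp1, the lowest, made up 8.34 ± 0.49% in HSPA1A and 8.52 ± 0.27% in control libraries. The summed TRiC level was 1845, 1743 and 1843 FPKM in HSPA1A replicates 1, 2 and 3, against 1756, 1894 and 1846 FPKM in control replicates 1, 2 and 3. These sums overlapped between the groups.

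Hspe1 was the higher of the mitochondrial pair on the deposited FPKM, at 437, 319 and 433 FPKM in HSPA1A libraries and 343, 376 and 385 FPKM in control libraries. Hspd1 had 259, 234 and 255 FPKM in HSPA1A libraries and 255, 269 and 266 FPKM in control libraries. The ratio of Hspe1 to Hspd1 in FPKM was 1.69, 1.37 and 1.70 in HSPA1A replicates 1, 2 and 3, against 1.35, 1.40 and 1.45 in control replicates 1, 2 and 3. HSPA1A replicates 1 and 3 were again the highest, and HSPA1A replicate 2 lay within the control range. A ratio within a library is free of the scaling between libraries. In counts, which are not divided by length, the ratio was 0.539, 0.436 and 0.542 in HSPA1A replicates 1, 2 and 3. In control replicates 1, 2 and 3 it was 0.430, 0.446 and 0.463. Which gene of the pair is higher thus depends on the gene lengths that the authors used.

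All 10 genes were strongly expressed. Ranked by mean FPKM among 22833 genes, Cct5 was at place 167, Hspe1 at 181, Cct2 at 216 and Hspd1 at 275, and the other subunits lay between place 333 (Cct4) and place 444 (Tcp1). Together they took 0.557%, 0.506% and 0.552% of all counts in HSPA1A replicates 1, 2 and 3, against 0.517%, 0.550% and 0.541% in control replicates 1, 2 and 3. Copies of these genes held few reads. Over the 6 libraries, the pseudogene Hspd1-ps3 had 40 reads in all, and Cct6b, a testis-enriched paralog of Cct6a, had 21. Tcp1, Cct7 and Cct8 share ground with genes on the other strand, Hspd1 with Hspe1, and no source used here gives the strand setting of the counting.

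**Figure D3:**
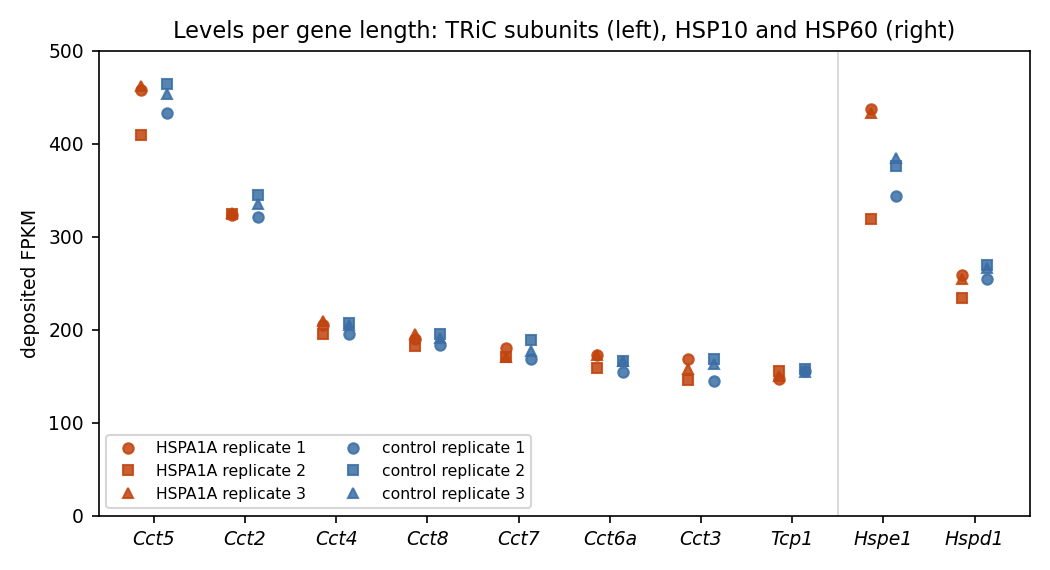
Deposited FPKM of the TRiC subunits (left, in descending order) and of Hspe1 and Hspd1 (right) in each library, with HSPA1A points left of control points. Cct5 (409.6 to 465 FPKM) and Cct2 (321 to 345 FPKM) stand apart from the other 6 subunits, each of which overlaps its neighbour in this order.

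The genes whose pattern over the libraries was most like that of the chaperonins were sought among 6732 genes with a mean of at least 20 CPM. The mean log2 CPM of the TRiC subunits was most like that of Mea1 (Pearson r 0.998), Csrp1 (0.996), Magohb (0.996), Polr2h (0.996) and Phb2 (0.995). For the mean of Hspd1 and Hspe1 they were Ppp1r15a (0.999), Tmem242 (0.998), Ranbp1 (0.997), Eif1ax (0.996) and Prim1 (0.996). Each r rests on the same 6 libraries, which share depth and scaling, and these are the highest of 6732 values.

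The genes that deliver clients to TRiC or assist it were read from the same fit. Calls without HSPA1A replicate 2 are to be read against the 5.27% of all tested genes called higher and 4.94% called lower there, and against 2.41% higher and 8.58% lower on library totals without it. On FPKM without that library 0 genes of any of the 10 lists were called. Groups without overlap are to be read against the 14.5% of all tested genes that had them. Of the genes named below, this also held for Bbs10, Tuba4a and Ubl5 (HSPA1A higher) and for Arl2 and Cebpb (HSPA1A lower). Of the 6 prefoldin genes, 0 passed the test and 6 of 6 had a positive log2 fold change, with a median of 0.11 against 0.0029 over all tested genes. Vbp1, a prefoldin subunit, had 103, 95.2 and 115 CPM in HSPA1A libraries and 93.7, 89.3 and 94.0 CPM in control libraries (log2 fold change 0.18, adjusted p 0.528 by edgeR). Its groups did not overlap. Pfdn5 had 149, 155 and 163 CPM in HSPA1A libraries and 143, 147 and 143 CPM in control libraries, again without overlap (log2 fold change 0.11). Without HSPA1A replicate 2, 4 of the 6 were called higher: Vbp1 (0.24), Pfdn1 (0.24), Pfdn6 (0.23) and Pfdn2 (0.19, each a log2 fold change). In that library Pfdn1 had 76.6 CPM, below the 82.7 to 87.4 CPM of the control libraries. Pfdn2 had 80.5 CPM there, below the 89.7 to 92.3 CPM of the control libraries. On library totals without HSPA1A replicate 2, 2 of the 6 were called, Vbp1 and Pfdn1. The sign held for 6 of 6 on library totals and 6 of 6 on FPKM.

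Of the 8 genes of the prefoldin-like R2TP complex, 0 were called, 6 were positive under TMM and 3 on FPKM. Pdrg1 had a log2 fold change of 0.19 (adjusted p 0.528 by edgeR) and was the 1 gene of them called without HSPA1A replicate 2 (0.28), and also on totals without it (0.22). Uxt had 0.087 and Ruvbl2, the ATPase with the highest FPKM of the list, -0.018. Of the phosducin-like regulators of TRiC, listed together with Cct6b, 3 of 5 genes were tested and 0 called. Txndc9, which slows the TRiC cycle, had 162, 152 and 175 CPM in HSPA1A libraries and 145, 149 and 147 CPM in control libraries. Its groups did not overlap (log2 fold change 0.15, adjusted p 0.543 by edgeR). It was called higher without HSPA1A replicate 2 (0.20, adjusted p 0.0142 by edgeR) but not on totals without it. Pdcl had 0.092 and Pdcl3 -0.027. The chaperonin-like Bardet-Biedl genes Mkks, Bbs10 and Bbs12 were all uncalled, with log2 fold changes of 0.067, 0.25 and 0.072.

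The clients lay around or below 0. Of 13 actin and tubulin genes, 0 were called and 2 were positive, with a median log2 fold change of -0.025. Actb had 3212, 3202 and 3317 CPM in HSPA1A libraries and 3573, 3259 and 3569 CPM in control libraries (log2 fold change -0.10, adjusted p 0.673 by edgeR), and Tuba4a had 0.10. Without HSPA1A replicate 2, 3 of them were called lower: Tubb3 (-0.37), Tubb5 (-0.25) and Tuba1a (-0.20). In that library each of the 3 lay above every control library. Tubb3 had 62.4 CPM there, against 47.3 to 54.3 CPM in control libraries. Tubb5 had 723 CPM, against 619 to 664 CPM, and Tuba1a 539 CPM, against 469 to 485 CPM. With all 6 libraries their log2 fold changes were -0.12, -0.10 and -0.069. On totals without HSPA1A replicate 2, Tuba1b (-0.17) was called too, which makes 4. Of 8 WD-repeat clients, 0 were called and the median was -0.052. Gnb4, a G protein beta subunit, had 12.3, 13.8 and 11.7 CPM in HSPA1A libraries and 15.1, 14.6 and 15.0 CPM in control libraries, with no overlap (log2 fold change -0.24, adjusted p 0.516 by edgeR). It and Fzr1, an activator of the anaphase-promoting complex, were called lower without HSPA1A replicate 2, each at -0.31. On totals without that library Mlst8 was called lower as well (-0.30). Fzr1 had 42.5 CPM in HSPA1A replicate 2, above the 40.9 to 41.7 CPM of the control libraries. Gnb1, the WD-repeat client with the highest FPKM, had -0.019. Of the 7 tubulin folding cofactors 0 were called, and Tbca had 0.13 and Arl2 -0.056. Tbca, which binds beta-tubulin, was called higher without HSPA1A replicate 2 (0.23, adjusted p 0.0128 by edgeR) and on totals without it (0.18). In HSPA1A replicate 2, Tbca had 107 CPM, below the 112 to 116 CPM of the control libraries.

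On the mitochondrial side, 0 of 11 tested genes of import and the HSP70 system were called, and 10 were positive under TMM, with a median log2 fold change of 0.11. On FPKM 6 of 11 were positive. Dnajc15, a J protein of the import motor, had 58.1, 45.5 and 59.1 CPM in HSPA1A libraries and 41.9, 47.6 and 46.8 CPM in control libraries (log2 fold change 0.26, adjusted p 0.517 by edgeR). In this gene HSPA1A replicates 1 and 3 lay above every control library and HSPA1A replicate 2 within the control range. With no filter on low counts Dnajc15 was called higher with all 6 libraries (0.25, adjusted p 0.0443 by edgeR). In that setting 205 of 22913 genes were called in either direction. Grpel1, the nucleotide exchange factor of mitochondrial HSP70, had a log2 fold change of 0.19. Hspa9 itself had 1854, 1679 and 1856 CPM in HSPA1A libraries and 1747, 1747 and 1755 CPM in control libraries (log2 fold change 0.038). Without HSPA1A replicate 2, 4 of these were called higher: Dnajc15 (0.37), Grpel1 (0.29), Grpel2 (0.26) and Tomm20 (0.23). The same 4 were called on totals without it. Grpel2 had 46.6 CPM in HSPA1A replicate 2, below the 50.2 to 51.3 CPM of the control libraries.

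Of 9 mitochondrial proteases 0 were called, and Lonp1, the matrix protease that is often measured beside HSP60, had a log2 fold change of -0.061. Clpp had 0.12 and Pitrm1 0.10. Without HSPA1A replicate 2, Clpp (0.18) and Pitrm1 (0.15) were called higher, and on totals without it 0 were. Of 6 transcription factors and cofactors linked to the mitochondrial unfolded protein response 0 were called, with or without that library under TMM, and on totals without it 1, Cebpb, was called lower (-0.19, adjusted p 0.0420 by edgeR). Ddit3 (CHOP) had 1880, 1550 and 1544 CPM in HSPA1A libraries and 1594, 1689 and 1685 CPM in control libraries (log2 fold change 0.0014). Cebpb had -0.15 (adjusted p 0.535 by edgeR) and Ubl5 0.10. By FPKM Ddit3 stood at place 37 and Atf4 at place 114 of all genes.

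**Figure D4:**
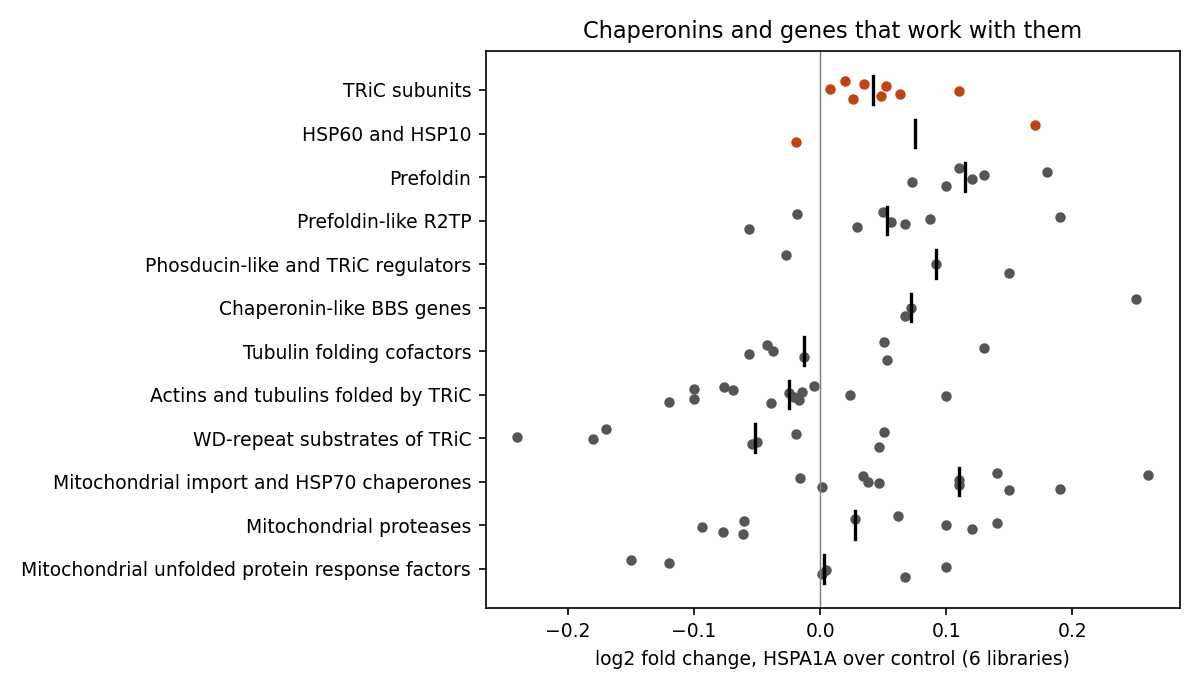
Log2 fold change of HSPA1A over control (edgeR, TMM scaling, all 6 libraries) for the chaperonin genes (orange) and for 10 lists of genes that work with them (grey), 1 point a gene, with the median of each list as a bar. No point passes an adjusted p of 0.05. The positive signs of the TRiC subunits (8 of 8) hold for 4 of 8 on library totals and 2 of 8 on FPKM, and those of prefoldin (6 of 6) on both.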

How the data were processed

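Polyadenylated RNA of HL-1 cells was sequenced as 150 nt paired-end reads from a stranded kit, per the labels' protocols. Processing notes of the submitters list GRCm38, bcl2fastq, TopHat2 and edgeR without saying what each did. No source used here gives the counting tool, its use of strand or the annotation. The authors deposited whole read counts for 22913 genes and, for 22833 of them, FPKM (read fragments scaled to gene length and library total), named so in the labels' file descriptions. The number of sample columns left unused is 0. Groups came from the labels.

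Counts were normalised by TMM and tested with edgeR 4.0.16 (glmQLFit, glmQLFTest) under R 4.3.3, without covariates, after filterByExpr (minimum count 10, minimum total 15), which kept 12827 genes. P-values were adjusted by Benjamini-Hochberg over all of them at a threshold of 0.05. CPM are TMM-scaled. The precision follows from 3 libraries a group: an exact permutation test of 3 against 3 cannot go below 0.1, and none was run. The biological coefficient of variation was 0.0688. No library copied another. The fit was tested on simulated data with 200 changed genes. It called 46.7% of those changed 1.25-fold and 90% of those changed 2-fold. In the simulation no library was set apart from its group as HSPA1A replicate 2 was here. Replicates of the same number did not deviate together (r -0.1, -0.00152 and 0.0847).

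The alternatives were median-of-ratios factors, library totals, DESeq2 1.42.0, limma-voom (limma 3.58.1), no filter, 5 CPM in 3 libraries, the replicate block, each library left out, and limma-trend on log2 of FPKM plus 1 or 0.1, or with mean FPKM of at least 1. Totals and FPKM without HSPA1A replicate 2 were added after seeing the data.

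The members and the lists were chosen with earlier results of these data known. From each list the text names up to 4 called genes, or else the 2 with the smallest p, and the highest by FPKM. Genes called without HSPA1A replicate 2 were named after their values were seen. Likeness is Pearson's r of log2 CPM over 6 libraries. Coordinates are from GENCODE M21 (GRCm38), promoter windows from RefSeq (GRCm38.p6). Figures were drawn with matplotlib 3.10.9.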

Additional observations from a re-analysis of the deposited data

How the results depend on the processing

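Of the 16 alternatives listed first, only leaving out HSPA1A replicate 2 called a chaperonin gene, so that the count ranged from 0 to 2 over single libraries left out. It was 1 on library totals without that library and 0 on FPKM without it. The count over all tested genes, 23, was 64 with DESeq2, 205 with no filter, 15 with FPKM at pseudocount 1, 15 with a mean FPKM of at least 1, 10 to 1323 over single libraries left out, 1423 on totals without HSPA1A replicate 2 and 87 on FPKM without it. The median TRiC log2 fold change, 0.042, ranged from -0.019 to 0.11 over the alternatives, and that of Hspd1 and Hspe1, 0.075, from 0.0066 to 0.19.

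With the replicate number as a block, 16 genes and 0 chaperonin genes were called and the TRiC median was 0.039. Same-numbered libraries did not deviate together, so the numbers are not read as pairs.

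Uncalled log2 fold changes turned sign with the scaling. The median over all tested genes was 0.0029 under TMM, -0.033 on library totals and -0.041 on FPKM. On library totals Tcp1 had -0.028, Cct2 -0.016, Cct5 -0.0023 and Cct7 -0.011. On FPKM, in each of its 3 settings with all libraries, Tcp1 had -0.050, Cct2 -0.037, Cct3 -0.012, Cct5 -0.026, Cct7 -0.032 and Cct8 -0.0074. Without HSPA1A replicate 2, totals gave Tcp1 -0.041, Cct2 -0.0078 and Hspa1b -0.079, and FPKM gave Tcp1 -0.071, Cct2 -0.038, Cct7 -0.018 and Hspa1b -0.058. With single libraries left out, Cct3 ranged from -0.014 to 0.12, Cct5 from -0.0070 to 0.11, Cct7 from -0.012 to 0.064, Hspd1 from -0.058 to 0.049 and Hspa1b from -0.026 to 0.23. Cct6a ranged from 0.079 to 0.18 and Hspe1 from 0.084 to 0.32. The cause was not tested.

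The main limits are 3 libraries a group, 1 of which stood apart, and an unknown share of transfected cells. RNA says nothing of the amount of assembled chaperonin, and 48 h is a single time. Each chaperonin gene had at least 7130 reads in every library, so depth limits these values less than the number of libraries does.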
